A study of Mus musculus with 3 samples.

Results

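Granulocyte progenitors, the bone marrow cells committed to making neutrophils, were compared between mice lacking the transcription factor IRF8 and control mice. The comparison took every gene whose level reached an RPKM (read number scaled by transcript length and library size) of 1 in either library, which left 10564 of 24421 symbols, and the value for each gene is the difference of log2(RPKM + 1), IRF8-deficient minus control. The study held 3 libraries of such progenitors, each sorted by flow cytometry from the bone marrow of female mice and extracted as total RNA, with 1 library per group. The control group, NTB, came from mice without a tumor on an F1 semi-syngeneic background (H-2b/d), and the 4T1-TB group came from the same F1 background carrying the 4T1 mammary tumor. The IRF8-deficient group came from C57BL/6 mice (H-2b) without IRF8 and without a tumor in its label. Strain and genotype therefore changed together between the groups compared, and their parts cannot be told apart. The sources used here do not give the number of mice behind each library, the allele or the ages. With 1 library a side there is no replicate check and no test of any difference below. A gene is called higher or lower here when its difference was 1 or more in size, and each fold carries an exact 95% interval made from recovered read counts, which covers counting error only. In these whole-population libraries a larger share of cells of a given stage and more RNA per cell cannot be told apart.

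IRF8 is an interferon regulatory factor that directs myeloid progenitors toward monocytes and dendritic cells and restrains their output of neutrophils. It binds DNA weakly by itself and acts with partners, PU.1 at composite Ets and IRF sites and IRF1 or IRF2 at interferon response elements. Neutrophil precursors fill their granules in a fixed order: the primary granules with myeloperoxidase and serine proteases at the promyelocyte stage, then the secondary granules with lactoferrin and cathelicidin as division ends, then the tertiary granules with gelatinase and the surface receptors of the mature cell. In this order the cells also lose nucleoli, ribosome production and finally the cell cycle.

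Summed recovered reads came to 41.6 M in the NTB library, 23.04 M for 4T1-TB and 35.5 M for IRF8-deficient, so that an RPKM of 1 at the median transcript length rested on 127, 63.2 and 74.3 reads. The ribosomal RNA gene Rn45s took 1.82%, 6.42% and 13.9% of the reads, and the 20 highest genes took 8.29%, 13.97% and 28.7%. The library size implied by the deposited values was 1.08, 0.964 and 0.735 times the summed reads, with the libraries in the same order. Where 3 RPKM values follow a gene below, they are those of NTB, 4T1-TB and IRF8-deficient in this order. As deposited, the median of all genes compared was -0.02. When each library was instead divided by its summed reads, this median was -0.51, and when rescaled without the 20 highest genes it was -0.17. A list of genes that changes direction under either scaling is said to do so where its median is given. The shift of all genes is part of such a change. Set against the median of all genes, NF-kB genes stood at 0.48 as deposited and at 0.49 scaled to summed reads. Toll-like receptor genes stood at 0.40 and 0.42, whereas eosinophil markers went from 0.39 to -0.34.

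The targeted gene was examined first. Irf8 (ENSMUSG00000041515.10, mm10 chr8:120736358-120756694, plus strand) stood at an RPKM of 43.8 in NTB. Its level was 8.60 in the 4T1-TB library and 13.7 in the IRF8-deficient library, a difference of -1.60 from NTB. It was 3.18-fold (3.00 to 3.39) lower in the IRF8-deficient library than in NTB, and the 4T1-TB library lay lower still. Transcript reads from Irf8 were thus present in the library labelled IRF8-deficient, and since the allele is not given here, whether they come from outside a deleted part was not tested. Of the 80 other genes compared within 5 Mb of Irf8, 12 were higher, 8 lower, and the median was -0.04. Over all genes compared the shares called were smaller, 8.86% higher and 5.78% lower. The 2 largest differences on that stretch were those of Crispld2, a secreted protein gene, with RPKM values of 1.01, 2.00 and 34.2 in NTB, 4T1-TB and IRF8-deficient (a difference of 4.13), and of 6430548M08Rik (a difference of 4.44). Both were named after their values were seen. Cyba, the p22phox subunit of the phagocyte oxidase, lies in the same window and rose from 159 to 432.

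**Figure D1:**
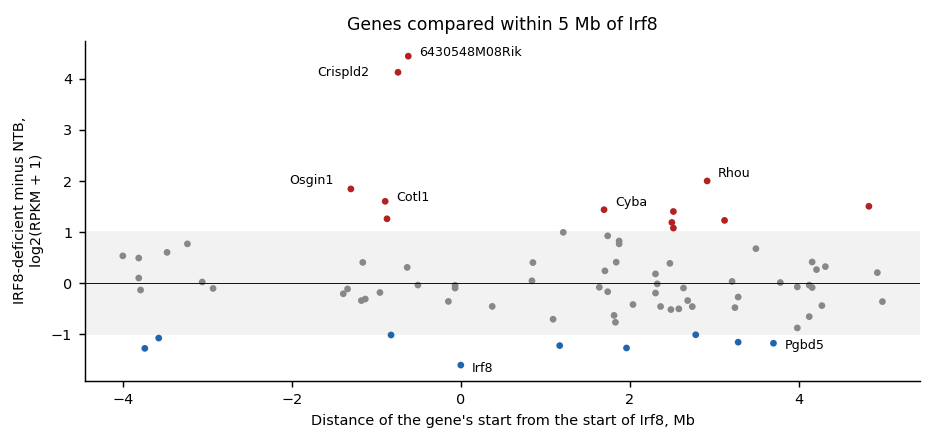
Difference between the IRF8-deficient and NTB libraries (log2(RPKM + 1), vertical axis) for each gene compared within 5 Mb of Irf8, against the distance of its start from that of Irf8 in Mb (horizontal axis). Points are genes, red at 1 or more, blue at -1 or less, and the grey band holds differences under 1. Irf8 itself sits at -1.60, and Crispld2 and 6430548M08Rik are the highest points at 4.13 and 4.44.

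The other interferon regulatory factors showed no common shift. Of 7 family members compared, 1 was higher and 1, Irf8 itself, was lower. The family median of 0.29 became -0.21 when scaled to summed reads. Above the median of all genes it lay by 0.31 as deposited and by 0.30 under that scaling. Irf7, the amplifier of interferon responses, had RPKM values of 1.07, 1.31 and 6.84 and was 6.40-fold (5.05 to 8.18) higher than in NTB. Irf1 and Irf2, partners of IRF8 on DNA, had differences of 0.49 and 0.62, Irf3 was at 0.02, and Irf5, a monocyte-lineage member, was at -0.53. Among the other binding partners, Spi1 (PU.1) stood at 85.5, 130.4 and 164, a difference just under the call at 0.93. Ets1 was called higher, with 22.3, 24.5 and 83.3, the sole call among 7 partners, whose median of 0.49 fell to -0.04 when scaled to summed reads.

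Across the genome, 936 genes were higher in the IRF8-deficient library (8.86% of those compared) and 611 were lower (5.78%), while 9017 (85.4%) differed by less than 1 either way. Scaled to summed reads the same split was 445 higher and 1932 lower of 10515 genes. Without the 20 highest genes it was 739 and 854 of 10529. Counts given below under these scalings are to be read beside these. Large differences lay mostly on the higher side. A difference of 2 or more was reached by 203 genes upward and by 41 downward, and a difference of 4 or more by 29 upward and 1 downward. The share of higher genes was 9.07% among genes with a mean RPKM under 2, at its lowest 7.12% among genes from 5 to 10, and 19.4% among genes at 100 or more, while the share of lower genes was 11.1%, 6.17% and 1.92% in the same ranges. Chromosome 13 had the largest share of higher genes, 14.6% of its 424 genes. It carries the main histone gene cluster, whose part in this share was not tested.

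**Figure D2:**
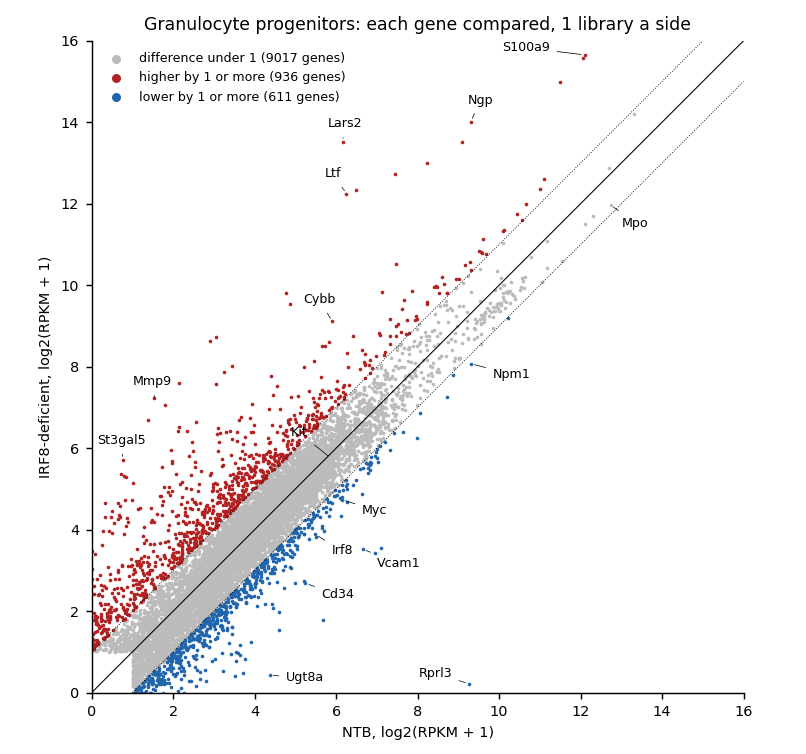
Each gene compared as a point, with its log2(RPKM + 1) in the NTB library (horizontal) and in the IRF8-deficient library (vertical). The solid line is equality and the dotted lines a difference of 1. The 936 red genes above the band reach up to the granule genes Ltf and Ngp and the mitochondrial leucyl-tRNA synthetase gene Lars2, while the 611 blue genes lie below it, with Rprl3 farthest down.

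Granule genes divided sharply by stage. None of the 10 primary granule genes compared was called, and their median was -0.75. Mpo, myeloperoxidase, had RPKM values of 6811, 6749 and 4012 in NTB, 4T1-TB and IRF8-deficient. The azurophil serine proteases lay on the same side: Elane, neutrophil elastase, at 4411, 4332 and 2889, Prtn3, proteinase 3, at 2992, 4585 and 1535, and Ctsg, cathepsin G, at 2112, 3617 and 1077. For these 4 genes the IRF8-deficient library was the lowest of the 3, with ratios to NTB between 0.510 and 0.655, and their summed share of reads was 2.84% in NTB and 1.13% in IRF8-deficient. Scaled to summed reads, 8 of the 10 primary granule genes would be called lower.

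Of 17 secondary granule genes, 16 were higher and none lower, and their median was 4.53. Ltf encodes lactoferrin, the iron-binding protein of these granules. Its RPKM was 75.2, 65.0 and 4856 in the same order of libraries, which made it 64.5-fold (63.2 to 65.9) higher than in NTB, with both F1 libraries low. Lcn2, which encodes lipocalin-2 and withholds bacterial siderophores, had 89.2, 203 and 5205, or 58.3-fold (56.4 to 60.4) higher. Ngp, neutrophilic granule protein, reached 16528 from 632 in NTB and 424 in 4T1-TB. Camp, the cathelicidin precursor, reached 11611 from 546 and 340.3. Lyz2 (lysozyme M) had 300.3, 197 and 8190.0 and Lyz1, a near-identical copy whose reads may be shared with it, had 28.3, 17.7 and 743. In the 4T1-TB library Ltf, Ngp, Camp and Lyz2 lay below NTB while Lcn2 lay above it, and all 5 were far higher in the IRF8-deficient library than in either F1 library. Mmp8, neutrophil collagenase, and Cd177, a neutrophil surface protein, had graded values instead, Mmp8 at 2.45, 36.0 and 132 and Cd177 at 26.2, 65.1 and 899.6. The remaining secondary granule genes included Chil3 at 172, 136 and 6789, Olfm4 at 7.23, 3.02 and 189 and Hp, haptoglobin, at 367, 612 and 900.2; Tcn2, a vitamin B12 carrier, was the 1 member not called, at 0.56. Ltf, Camp, Ngp, Lcn2, Chil3 and Lyz2 together took 0.207% of the NTB reads, 0.141% of the 4T1-TB reads and 4.63% of the IRF8-deficient reads.

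Tertiary granule genes followed the secondary ones, with 8 of 9 higher, none lower and a median of 2.77. Mmp9, gelatinase B, the defining protease of these granules, had RPKM values of 1.91, 29.8 and 149 and was 78.4-fold (69.5 to 88.7) higher than in NTB. Mmp25, a membrane-bound metalloproteinase, had 0.768, 2.67 and 25.3, and Adam8, a membrane protease of leukocytes, had 0.458, 6.79 and 16.8. Itgam, the CD11b chain of the adhesion receptor Mac-1, was at 52.2, 53.9 and 361, with the 2 F1 libraries close together and IRF8-deficient 6.91-fold (6.77 to 7.06) above NTB. Mmp9, Mmp25 and Adam8 were also higher in 4T1-TB than in NTB, as was the case for 7 of the 9 tertiary and 10 of the 17 secondary granule genes. Ctsz was the 1 member not called.

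**Figure D3:**
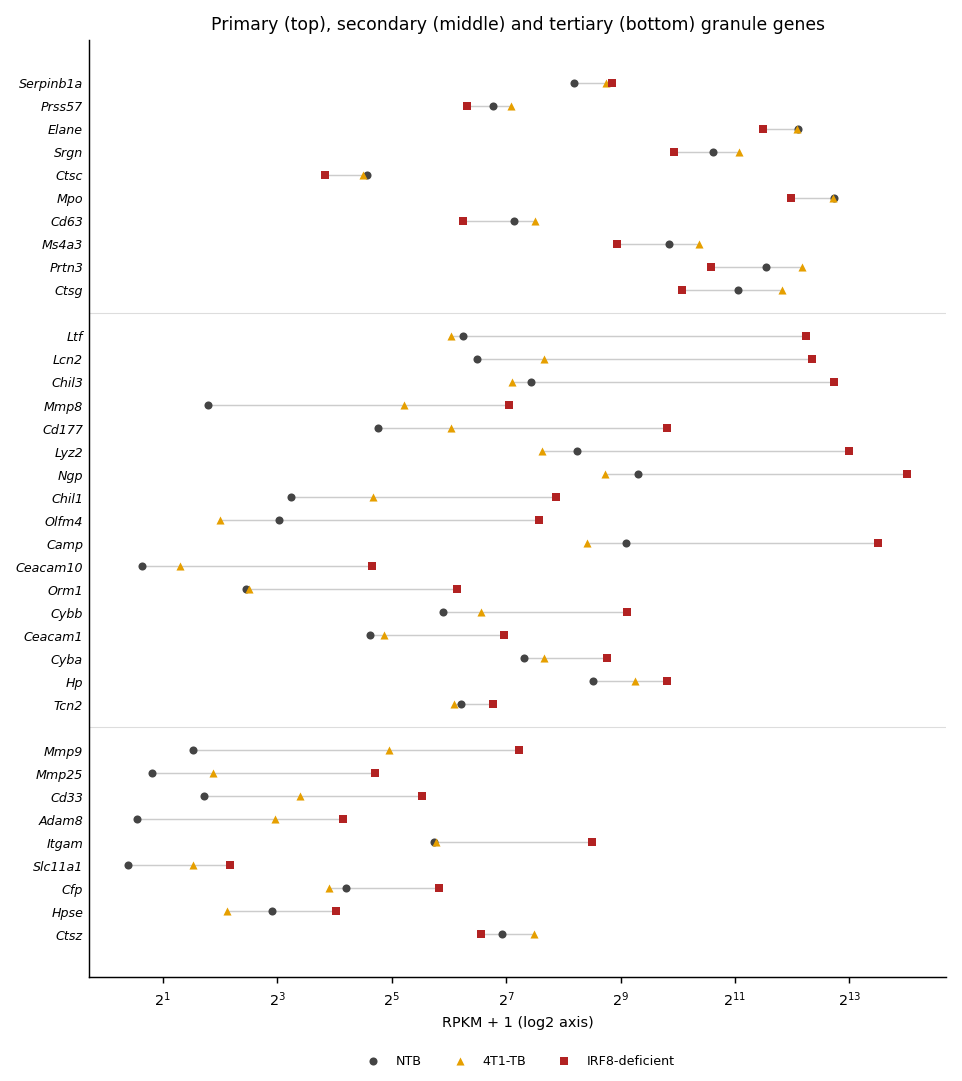
RPKM + 1 on a log2 axis for each primary, secondary and tertiary granule gene in the 3 libraries, 1 mark a library (circle NTB, triangle 4T1-TB, square IRF8-deficient). The IRF8-deficient squares lie left of the other marks for 9 of the 10 primary granule genes, Serpinb1a being the exception, and right of them for all 17 secondary granule genes.

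The stretch before the transcription start is shown for 4 of the highest granule and late neutrophil genes because they moved together and because each holds a short form of the C/EBP motif, TTNNGCAA, searched on both strands; C/EBP-epsilon is the factor known to drive secondary granule genes. Each is the 250 bases before the RefSeq start on the gene's strand (GRCm38.p6), Ltf at chr9:111019042-111019291 (plus), Lcn2 at chr2:32387740-32387989 (minus), Ngp at chr9:110419558-110419807 (plus) and Retnlg at chr16:48872358-48872607 (plus), with the matched letters in capitals.
Ltf: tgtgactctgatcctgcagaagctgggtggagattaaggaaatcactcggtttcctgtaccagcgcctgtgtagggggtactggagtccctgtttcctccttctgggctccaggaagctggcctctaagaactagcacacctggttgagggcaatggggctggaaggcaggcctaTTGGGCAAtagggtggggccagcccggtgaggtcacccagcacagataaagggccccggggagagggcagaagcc
Lcn2: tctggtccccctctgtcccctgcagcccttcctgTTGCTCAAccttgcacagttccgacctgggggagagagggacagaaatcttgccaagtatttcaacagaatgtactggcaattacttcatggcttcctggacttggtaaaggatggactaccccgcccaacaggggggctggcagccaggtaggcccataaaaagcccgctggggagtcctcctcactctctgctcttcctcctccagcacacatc
Ngp: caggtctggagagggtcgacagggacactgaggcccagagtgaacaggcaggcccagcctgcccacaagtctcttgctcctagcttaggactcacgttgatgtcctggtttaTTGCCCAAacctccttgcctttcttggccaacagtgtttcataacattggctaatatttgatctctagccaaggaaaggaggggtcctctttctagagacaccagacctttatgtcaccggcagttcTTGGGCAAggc
Retnlg: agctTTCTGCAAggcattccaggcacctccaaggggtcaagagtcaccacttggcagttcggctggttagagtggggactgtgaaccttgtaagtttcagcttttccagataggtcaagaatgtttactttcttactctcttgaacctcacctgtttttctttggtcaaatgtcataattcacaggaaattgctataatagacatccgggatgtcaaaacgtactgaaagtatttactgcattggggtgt
Of 27025 RefSeq promoters of this length, 9.55% hold the motif, as do 7.51% of those of the genes compared. It was found in 4 of the 14 secondary granule genes with a promoter in the table (of 17), in 1 of 8 tertiary granule genes (of 9) and in 5 of 24 late neutrophil genes (of 29). A match is a description of letters, not a binding site. Counts over all called genes are not given, since fewer than 80% of the higher genes (79.7%) and of the lower genes (78.4%) had a promoter in the table.

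Genes of mature neutrophils outside the granules were also high. Of 29 late neutrophil genes, 23 were higher, none lower, and the median was 2.10. Retnlg, resistin-like gamma, had RPKM values of 6.54, 178 and 392 in NTB, 4T1-TB and IRF8-deficient, and Ifitm6, a membrane protein of the IFITM family, had 7.26, 46.9 and 421. Both rose in steps from NTB through 4T1-TB to IRF8-deficient. Ly6g, the surface antigen by which mouse neutrophils are recognised, was at 4.09, 8.16 and 84.3, and Padi4, the enzyme that citrullinates histones in neutrophil extracellular traps, was at 3.32, 5.68 and 84.2. Another order of the libraries was seen for Stfa2l1, a stefin, and Wfdc17, both highest in 4T1-TB, Stfa2l1 with 0.0539, 32.7 and 9.62 and Wfdc17 with 0.238, 103 and 1.31; the difference of Wfdc17 from NTB was 0.90, below the call. Csf3r, the G-CSF receptor, had 79.5, 119 and 99.7 and was not called.

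S100a8 and S100a9, the 2 chains of calprotectin, had the highest RPKM of all called genes in the IRF8-deficient library. S100a8 stood at 4255, 6254 and 49179.9 and S100a9 at 4413, 6556 and 51478, 11.6-fold (11.5 to 11.6) and 11.7-fold (11.6 to 11.7) above NTB. Their summed share of reads was 0.428%, 0.567% and 3.398%. S100a6 rose from 4.88 to 99.1, and 5 of 8 S100 genes were higher in all, or 3 when scaled to summed reads.

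The phagocyte oxidase, which makes superoxide, had 5 of its 8 genes higher, none lower and a median of 1.23, with 2 of the 8 higher when scaled to summed reads. Cybb, the catalytic gp91phox subunit, had RPKM values of 58.8, 93.4 and 552 and was 9.38-fold (9.20 to 9.56) higher than in NTB. Of the cytosolic subunits, Ncf1 (p47phox) was 2.88-fold (2.83 to 2.93) higher, though at 0.97 below the call when scaled to summed reads, and Ncf4 (p40phox), not called, 1.73-fold (1.68 to 1.78). Cybb is a described IRF8 target, and its promoter, chrX:9469325-9469574 on the minus strand (RefSeq, GRCm38.p6), is shown because the IRF pair motif GAAANNGAA, searched on both strands, matches it 3 times.
Cybb: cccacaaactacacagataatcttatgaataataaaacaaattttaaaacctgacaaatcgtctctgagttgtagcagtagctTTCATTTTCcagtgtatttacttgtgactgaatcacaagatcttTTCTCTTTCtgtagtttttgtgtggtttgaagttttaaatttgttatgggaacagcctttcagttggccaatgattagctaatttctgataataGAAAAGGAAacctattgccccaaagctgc
This motif is in 7.16% of all promoters of the table and in 6.34% of those of the genes compared.

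Receptors for attractants, antibodies and inhibitory ligands followed. Of 12 chemoattractant receptors 9 were higher, with a median of 2.25. Fpr2 and Fpr1, the formyl peptide receptors, had high levels in IRF8-deficient, Fpr2 at 1.58, 11.7 and 103 and Fpr1 at 0.422, 5.58 and 21.1, the 4T1-TB library lying between the other two for both. C5ar1, the complement C5a receptor, had 2.23, 8.97 and 27.4, and Cxcr2, the receptor that draws neutrophils out of the marrow, had 4.38, 30.2 and 39.5. Cxcr4, which holds them in the marrow, had 111, 76.5 and 262 and was 2.37-fold (2.30 to 2.43) higher in IRF8-deficient than in NTB. Cx3cr1, a monocyte receptor, was not called, at -0.58.

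Of 12 Fc receptors and their signalling kinases 7 were higher, with a median of 1.35. Fcer1g, the shared gamma chain, had 35.8, 35.6 and 254, and Fgr, a Src-family kinase, had 4.26, 12.5 and 54.9. Syk, a kinase downstream of Fc receptors, was not called at 0.76. Of 20 paired receptors 14 were higher, with a median of 1.57; Pirb, an inhibitory receptor for MHC class I, had 2.86, 15.3 and 60.6 and was 21.1-fold (18.96 to 23.6) higher. Reads of the Pir, Lilr and Cd300 genes can be split between near-identical copies.

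Actin cytoskeleton genes were higher to a smaller degree, with 16 of 41 higher, none lower and a median of 0.97, or 7 of 41 higher when scaled to summed reads. Actb had 2199, 2674 and 6210.1, and Gsn, gelsolin, which severs actin filaments, had 20.8, 25.1 and 158. Among 24 integrins and adhesion molecules 8 were higher and 1 lower, and the median of 0.32 became -0.22, with 5 higher and 7 lower, when scaled to summed reads. Itgb2 and Itgb2l, beta chains of leukocyte integrins, were both higher, Itgb2 at 49.1, 69.6 and 362 and Itgb2l at 9.82, 9.75 and 258, and Itgb2, which pairs with Itgam in Mac-1, was 7.38-fold (7.18 to 7.59) above NTB. Vcam1, an adhesion ligand that was among the largest lower genes, is described with those.

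**Figure D4:**
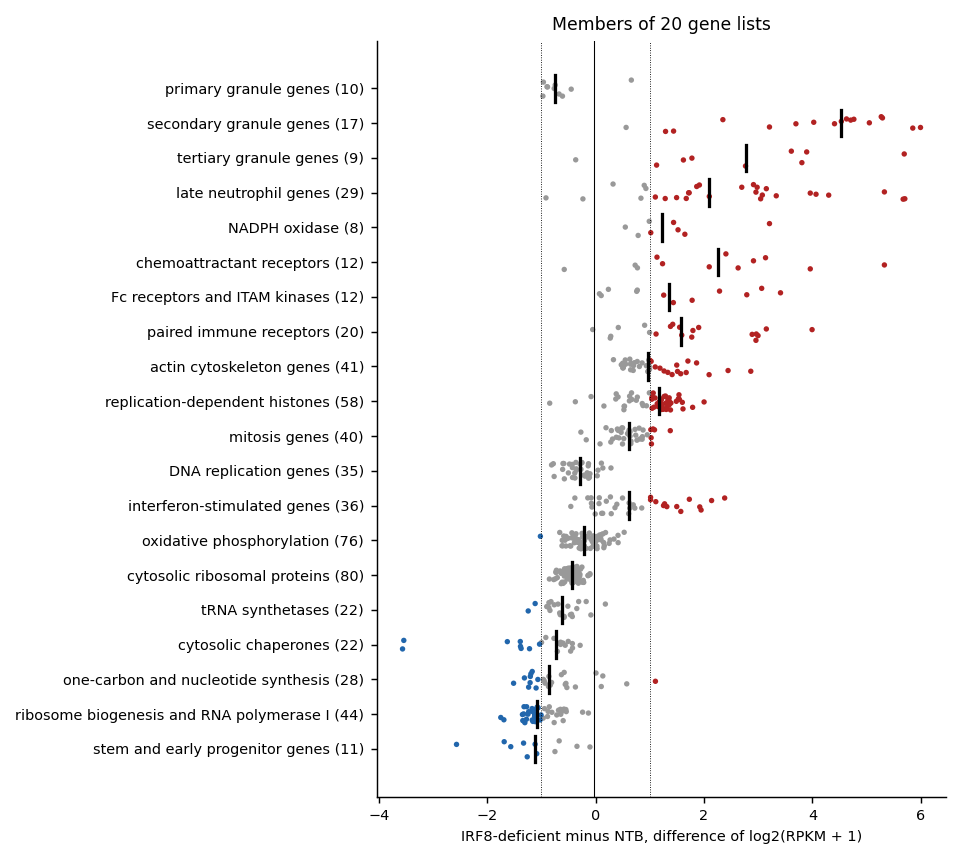
Difference of log2(RPKM + 1), IRF8-deficient minus NTB, for each compared member of 20 gene lists (number compared in brackets). Points are genes, red at 1 or more and blue at -1 or less, black bars are list medians, the solid line is the median of all genes and the dotted lines mark the call. Secondary granule genes have the rightmost median, 4.53, and stem and ribosome biogenesis genes the leftmost, -1.11 and -1.09.

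At the other end, genes of early progenitors were lower. Of 11 stem and early progenitor genes 7 were lower, none higher, and the median was -1.11 beside the median of -0.02 of all genes. Cd34, the progenitor surface sialomucin, had RPKM values of 36.9, 8.73 and 5.41 and was 6.83-fold (6.14 to 7.61) lower than in NTB. Adgrl4, an adhesion receptor of early progenitors, had 24.8, 11.7 and 7.03, and Cd48 had 42.6, 28.3 and 19.1. For these 3 genes NTB was highest, 4T1-TB intermediate and IRF8-deficient lowest. Kit, the stem cell factor receptor, was not called, with 57.2, 37.5 and 53.2 and a difference of -0.10.

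The regulators of granulocyte fate did not move as a group. Of 20 lineage regulators 4 rose and 1 fell, and the median was 0.54, or 1 higher and 6 lower with a median within 0.01 of 0 when scaled to summed reads. Cebpa, needed to enter the granulocyte lineage, had 42.6, 43.3 and 36.3, and Gfi1, which represses monocyte genes, had 84.3, 105 and 68.5; neither was called. Cebpe, the regulator of secondary granules, had 77.4, 108 and 255 and was 3.30-fold (3.18 to 3.42) higher, and Cebpd was 2.21-fold (2.09 to 2.34) higher, which made 2 of 7 C/EBP genes. The call of Cebpd ended under both other scalings, with differences of 0.96 without the 20 highest genes and 0.58 scaled to summed reads. Myb, which maintains progenitors, had 300.2, 239 and 167 and was not called. Among 11 Kruppel-like factors 4 were higher, with Klf5 at 2.04, 2.30 and 19.9 and Klf6 at 14.6, 12.5 and 53.2. Klf4, a monocyte regulator downstream of IRF8, was the 1 lower, with 6.40, 1.51 and 1.16, and its level in 4T1-TB was close to that in IRF8-deficient. Id2 and Id1, inhibitors of E proteins, rose to 106 from 13.8 and to 33.6 from 7.43.

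Genes named in the field as targets of IRF8 went both ways: among the 14 compared there were 4 calls upward and 3 downward, and their median of -0.10 stayed negative under both other scalings. Ly86 (MD-1), a partner of the Toll-like receptor relative CD180, had RPKM values of 20.3, 4.88 and 3.53 and was 5.74-fold (4.63 to 7.19) lower than in NTB. Klf4 and Bcl2, the survival gene, were the other two lower members, Bcl2 with 6.49, 1.65 and 2.07. In all 3 lower members the 4T1-TB library lay nearer to the IRF8-deficient library than to NTB. The higher side included Cybb, Bcl6, a repressor at 4.00, 7.36 and 16.7, and Fas, the death receptor, at 1.13, 1.73 and 5.78. For Cybb, Bcl6 and Fas the 4T1-TB library lay nearer to NTB instead. Asah1, acid ceramidase, Cst3, cystatin C, and Pml were not called, at 0.55, 0.08 and -0.28.

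Of 44 genes of ribosome biogenesis and RNA polymerase I, 26 were lower and none higher, with a median of -1.09, and all 44 differences were negative; scaled to summed reads 41 were lower. Gnl3, nucleostemin, had RPKM values of 51.2, 60.5 and 14.5 and was 3.52-fold (3.26 to 3.81) lower than in NTB. Npm1, nucleophosmin, a nucleolar histone chaperone, had 632, 745 and 268, and Nop58, of the small nucleolar ribonucleoprotein core, had 89.0, 103 and 36.3. In each of these the 4T1-TB library was the highest; IRF8-deficient was the lowest library for all 44 genes, and 4T1-TB was above NTB for 41. Ubtf, the RNA polymerase I activator, was not called at -0.24. Gas5 and Snhg1, host genes of small nucleolar RNAs, were lower too, at -1.23 and -1.15. The ribosomal RNA gene Rn45s was higher, at 3.48. How much of its reads came from precursor and how much from mature ribosomal RNA was not tested.

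None of the 80 cytosolic ribosomal protein genes was called, yet all lay between -0.85 and -0.10, with a median of -0.43; scaled to summed reads 34 of the 80 would be called lower. Of 77 mitochondrial ribosomal protein genes 2 were lower, with a median of -0.38, or 7 without the 20 highest genes and 27 when scaled to summed reads. Of 22 tRNA synthetase genes 2 were lower, Iars and Nars, with a median of -0.62, or 5 and 14 under the same scalings. Lars2, the mitochondrial leucyl-tRNA synthetase, stood far from these, with 70.2, 2790.5 and 11712 and the largest upward difference of all genes, 7.36. Its share of reads moved with that of Rn45s over the 3 libraries (0.0293%, 1.04% and 3.34%), and the part of ribosomal RNA reads in its value was not tested.

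Myc, which drives ribosome production, had 69.8, 76.6 and 25.7 and was 2.72-fold (2.58 to 2.87) lower than in NTB. Mxd1, an antagonist that replaces MYC on DNA as myeloid cells differentiate, had 7.76, 19.6 and 69.8 and was 8.996-fold (8.53 to 9.49) higher. Mxd3 had 4.54, 2.77 and 25.7, and Mxi1 was 2.11-fold (2.02 to 2.20) higher, with a difference of 1.03 that became 0.87 without the 20 highest genes and 0.50 scaled to summed reads, below the call. Of the 9 genes of this network 3 were higher and 1 lower, and their median of 0.44 became -0.10, with 2 higher and 2 lower, when scaled to summed reads. The E-box CACGTG, the site these factors share, was in 2 of the 39 ribosome biogenesis promoters present in the table (of 44 genes), beside 8.81% of the promoters of genes compared and 6.05% of all promoters.

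Of 28 one-carbon and nucleotide synthesis genes 9 were lower and 1 was higher, and their median was -0.86; without the 20 highest genes 15 were lower, scaled to summed reads 22 were, and none was higher under either. Cad, the enzyme that opens pyrimidine synthesis, had 28.3, 31.3 and 9.29, and Shmt2, mitochondrial serine hydroxymethyltransferase, had 52.7, 70.2 and 20.6. The 1 higher member was Mthfd2, with a difference of 1.10 that became 0.95 and 0.59 under these scalings. Among 16 amino acid genes 6 were lower, with Asns, asparagine synthetase, at 15.5, 28.9 and 3.36 and Slc7a5, the leucine transporter chain, at 15.7, 22.2 and 6.17; Chac1, which degrades glutathione, was higher at 0.967, 2.93 and 7.73. Srm and Odc1, which make polyamines, were lower at -1.79 and -1.15.

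Of 22 cytosolic and mitochondrial chaperone genes 8 were lower, none higher, and the median was -0.74; scaled to summed reads 19 were lower. Hspa1a and Hspa1b, the heat-inducible HSP70 genes, were among them, Hspa1a with 123, 35.0 and 9.68 and Hspa1b with 137, 37.4 and 10.7; they are near-identical copies whose reads cannot be separated with certainty. Hspd1 and Hspe1, the mitochondrial HSP60 and HSP10, were 2.62-fold (2.52 to 2.71) and 2.66-fold (2.46 to 2.87) lower. In the endoplasmic reticulum 4 of 42 folding genes were lower, with a median of -0.51, or 7 without the 20 highest genes and 24 when scaled to summed reads. The 4 were Calr, calreticulin, Pdia4, Hyou1 and Pdia6, the last with 263, 350.1 and 116. For these 4 the 4T1-TB library was above NTB and IRF8-deficient below it.

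**Figure D5:**
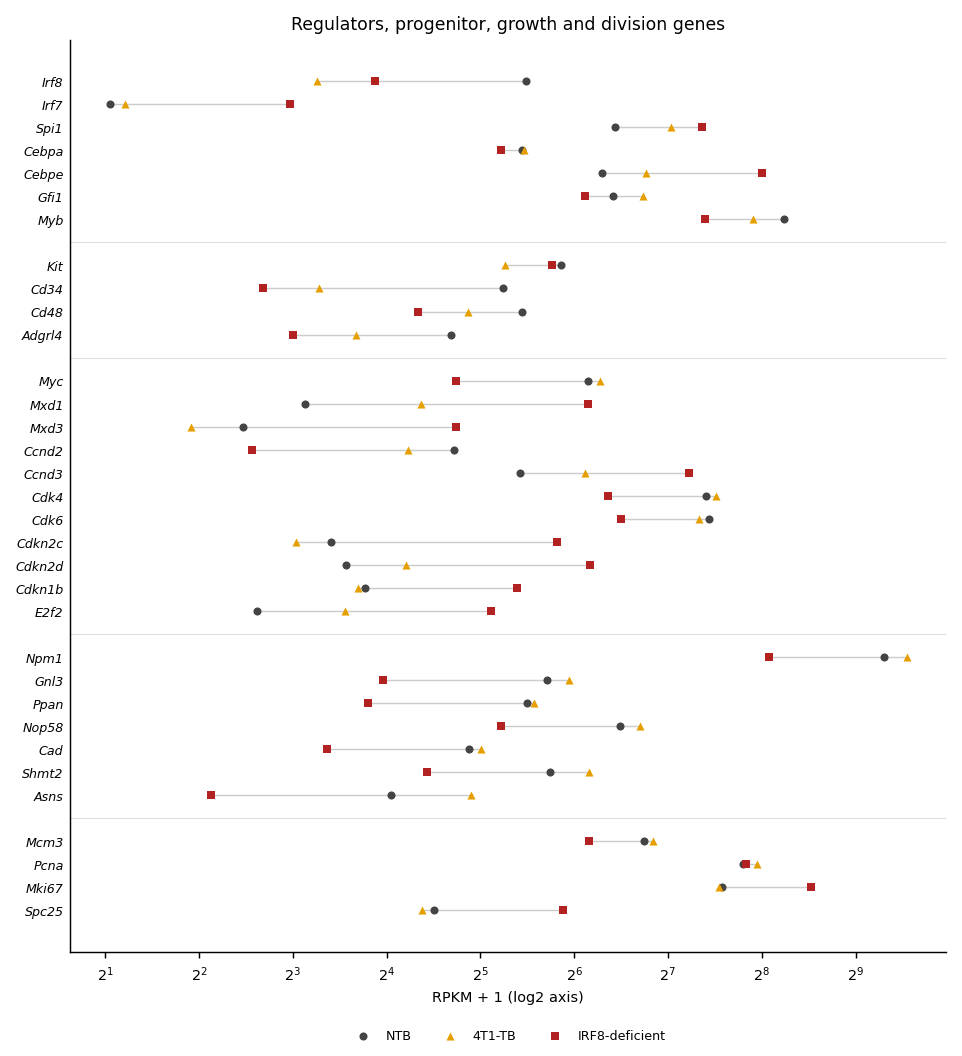
RPKM + 1 on a log2 axis for named regulators, progenitor genes, growth regulators, biosynthesis genes and division genes (blocks from top to bottom) in the 3 libraries, 1 mark a library. IRF8-deficient squares lie to the left of NTB circles for Myc, Ccnd2 and all 7 biosynthesis genes shown, and to the right for Mxd1, Ccnd3, Cdkn2c, Cdkn2d and Cdkn1b.

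None of 35 DNA replication genes was called, with a median of -0.29. Scaled to summed reads 8 would be lower, beside 1932 of 10515 over all genes. Pcna, the replication clamp, had 221, 247 and 226, and Mcm3, of the replicative helicase, had 106, 113 and 70.4. Of 40 mitosis genes 6 were higher and none lower, and their median was 0.62; scaled to summed reads none of the 40 was called and the median was 0.07. Spc25, a kinetochore subunit, had 21.7, 19.7 and 58.0 in NTB, 4T1-TB and IRF8-deficient, and Mki67, the proliferation antigen, had 189.8, 186 and 368, with a ratio to NTB of 1.94-fold (1.92 to 1.96), below the call.

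Replication-dependent histone genes were higher for 38 of 58 compared and lower for none, and the median was 1.16; 4 of the 58 were higher when scaled to summed reads. Their share of reads was 2.09%, 2.11% and 3.15%. Many of these genes are near-identical copies, and their transcripts mostly lack a poly(A) tail. The kit that selected the RNA is not given here.

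Among 30 cyclins, kinases, inhibitors and E2F or RB genes 9 were higher and 2 lower, and the median of 0.61 became -0.02, with 6 higher and 5 lower of 29, when scaled to summed reads. The D-type cyclins went opposite ways: Ccnd2 had 25.3, 17.7 and 4.94 and was 5.13-fold (4.75 to 5.54) lower than in NTB, while Ccnd3 had 41.9, 68.4 and 149 and was 3.56-fold (3.43 to 3.69) higher. Cdk4, their kinase, was lower with 169, 181 and 81.5, and Cdk6 was just short of the call at -0.93. The CDK inhibitors Cdkn2c (p18), Cdkn2d (p19) and Cdkn1b (p27) were higher too, Cdkn2c with 9.65, 7.195 and 55.6, Cdkn2d with 10.8, 17.4 and 71.0 and Cdkn1b with 12.7, 11.9 and 41.1. All 3 inhibitors were highest in IRF8-deficient, with 4T1-TB near NTB for Cdkn2c and Cdkn1b. E2f2 rose from 5.16 to 33.7, and Rb1 was 2.17-fold (2.07 to 2.28) higher.

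Of 76 oxidative phosphorylation genes 1, Atp5g1, was lower, with a median of -0.21. Scaled to summed reads 13 were lower, close to the share over all genes under that scaling, 1932 of 10515. Of 30 glycolysis, pentose phosphate and hypoxia genes 4 were higher, and the median of 0.14 became -0.01 without the 20 highest genes and -0.39 when scaled to summed reads. Slc2a3, the high-affinity glucose transporter GLUT3, had 2.94, 9.93 and 50.3 and was 17.1-fold (15.6 to 18.8) higher than in NTB, while Slc2a1 (GLUT1) was not called at -0.17. G6pdx, the entry enzyme of the pentose phosphate pathway that feeds the oxidase with NADPH, had 72.5, 112 and 188. In lipid synthesis 5 of 30 genes were lower, with a median of -0.22, or 8 when scaled to summed reads. Fasn, fatty acid synthase, was lower, with 31.8, 48.7 and 11.02. Alox5, 5-lipoxygenase, which starts leukotriene synthesis, had 7.87, 9.16 and 82.2, and 4 of 10 genes of that group were higher, or 2 when scaled to summed reads. St3gal5, the sialyltransferase that makes ganglioside GM3, had 0.692, 0.661 and 51.1, low in both F1 libraries and 73.9-fold (58.9 to 94.1) higher in IRF8-deficient.

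Interferon-stimulated genes were higher for 13 of 36 compared, none lower, and the median was 0.61 (7 of 35 genes and 0.07 when scaled to summed reads). Oas3 and Oas2, sensors of double-stranded RNA, were higher, Oas3 with 0.677, 1.68 and 7.74 and Oas2 with 0.890, 1.33 and 6.28, and Cmpk2, a mitochondrial nucleotide kinase, had 4.78, 3.11 and 24.5. Isg15, the ubiquitin-like modifier, had 1.30, 0.655 and 3.65, and its promoter, chr4:156200819-156201068 on the minus strand (RefSeq, GRCm38.p6), is shown as the textbook case of overlapping GAAANNGAA matches, in capitals.
Isg15: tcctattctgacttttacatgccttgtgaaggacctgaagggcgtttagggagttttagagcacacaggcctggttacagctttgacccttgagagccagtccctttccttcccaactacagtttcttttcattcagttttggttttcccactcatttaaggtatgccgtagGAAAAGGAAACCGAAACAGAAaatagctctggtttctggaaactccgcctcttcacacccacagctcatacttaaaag
Of 12 interferon-inducible GTPases 2 were higher and none was lower, with a median of -0.24, but none was higher and 1 of 11 lower without the 20 highest genes, and 2 of 10 lower when scaled to summed reads. Gbp3 was at -0.92 and Irgm1 at -0.18.

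Of 21 PYHIN, Schlafen and IFITM genes 6 were higher and 1 was lower, and the median was 0.59; scaled to summed reads, 5 of 20 were higher and 6 lower. Slfn1 and Slfn2, Schlafen genes of myeloid cells, were higher, Slfn1 with 0.613, 8.75 and 22.8 and Slfn2 with 14.2, 23.9 and 135, and Ifitm3 had 19.4, 36.1 and 123. Ifitm1 was highest in 4T1-TB, with 1.28, 73.7 and 4.24. The lower member was Ifi202b, with 3.80, 0.827 and 0, listed at 0 in the IRF8-deficient library. It was 59.5-fold lower there against a floor of 3 reads, with 48.1-fold as the lower end of its read-count interval. Ifi202b is known to be little expressed in C57BL/6 mice and expressed in some other strains, and the IRF8-deficient mice were the C57BL/6 group. Nlrp1b, which also varies between strains, had 1.99, 1.41 and 0.143. Of 7 genes compared with known strain-variable levels these 2 were called, both lower, and Nnt was not called at -0.27.

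MHC class I genes were higher for 5 of 23 and lower for 1, and the median of 0.33 became -0.20, with 2 higher and 3 lower, when scaled to summed reads. H2-K1 had 133, 137 and 439.6 and H2-D1 had 94.3, 105 and 244; B2m, the shared light chain, had 627, 512 and 1520.5. H2-Q2 had 3.33, 3.20 and 0.0348. The F1 and C57BL/6 mice carry different H-2 haplotypes, class I genes include near-identical copies, and haplotype and genotype cannot be told apart here. Of 8 MHC class II genes 1, H2-DMa, was lower, and Cd74, the invariant chain, had 1.07, 0.923 and 2.60 and was not called.

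Calls among inflammatory signalling genes differed by list, beside 8.86% higher and 5.78% lower over all genes compared. Of 21 Toll-like receptor genes 5 were higher and 2 lower, and the median of 0.38 became -0.10, with 3 higher, when scaled to summed reads: Tlr13 had 0.562, 5.04 and 7.06 and Tlr7 had 0.959, 0.702 and 8.78, while Cd14, the lipopolysaccharide co-receptor, was lower with 4.68, 4.61 and 1.48. Nfkbia, the NF-kB inhibitor, had 19.1, 23.6 and 75.5, 1 of 3 higher among 15 NF-kB genes, whose median of 0.46 became -0.02 when scaled to summed reads. Immediate early genes went both ways, with 5 of 14 higher and 4 lower, and their median of 0.46 became -0.04, with 3 higher and 6 lower, under that scaling. Fos had 42.5, 13.2 and 18.5, Jun had 39.0, 12.3 and 12.6 and Fosb had 11.4, 0.239 and 1.24, all highest in NTB, whereas Fosl2 had 5.19, 5.35 and 17.0. Il1b, interleukin-1 beta, was highest in 4T1-TB, with 0.168, 10.9 and 3.41.

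Survival genes were called at rates near those of all genes compared (8.86% higher and 5.78% lower). Of 15 BCL2 family genes 1 was higher, Bmf, and 1 lower, Bcl2. The median of 0.21 became -0.29 when scaled to summed reads. Under that scaling none of 14 was higher and 3 were lower, beside 1932 of 10515 lower over all genes. Mcl1, on which neutrophils depend, had 51.7, 60.1 and 62.2. Tnf and Fas were the 2 higher genes of 19 in the death receptor group, Tnf with 3.88, 3.73 and 16.9, and that group's median of 0.34 became -0.19 when scaled to summed reads. Genes by which suppressive myeloid cells act were higher for 7 of 13, led by S100a8, S100a9 and Cybb; Arg2, arginase 2, had 0.0788, 3.88 and 2.41, Hmox1, haem oxygenase 1, had 1.204, 3.60 and 4.79, and Cd274 (PD-L1) was not called, at -0.80.

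The label was set beside 12 markers of granulocyte progenitors (Mpo, Elane, Prtn3, Ctsg, Ms4a3, Kit, Cd34, Fcgr3, Cebpe, Gfi1, Csf3r and Ly6c2). Each was above an RPKM of 1 in all 3 libraries, which does not tell the stages of these cells apart. Fcgr3 (CD16), often used to gate such progenitors, had 101, 108 and 275, and Ly6c2 had 739, 478 and 1349. Of 28 monocyte and macrophage markers 20 reached the minimum, of which 4 were higher and 3 lower, and the median of 0.29 became -0.15 when scaled to summed reads; Csf1r, the defining receptor, had 24.6, 11.03 and 14.3, below the call, while Lgals3 had 7.61, 11.2 and 89.6 and Mpeg1 had 44.8, 24.3 and 109. The summed RPKM of that list was 1102, 694 and 1894 in NTB, 4T1-TB and IRF8-deficient, most of it from Ly6c2, and its part in the results was not tested. Of 17 dendritic cell markers 3 reached the minimum and none was called. Of 19 erythroid markers in the files 2 did, Car2 with 4.25, 2.62 and 0.214 and Tfr2, the transferrin receptor 2, with a difference of -1.28, both lower. Among lymphocyte markers Cd3d had 0.201, 0.0339 and 0.346, and Nkg7, a granule membrane protein of cytotoxic cells, had 420.4, 435 and 152. Of 12 eosinophil markers 4 reached the minimum, with 2 higher and 1 lower, and the median of 0.37 became -0.85 over 3 when scaled to summed reads. Ear2, an eosinophil-associated ribonuclease, had 0.249, 0.189 and 24.1 while Prg2, the major basic protein, had 3.41, 0.484 and 0.640. Epx, eosinophil peroxidase, was below the minimum, with 0.407, 0.1004 and 0.0285. Ear genes are a family of near-identical copies.

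Beyond the lists, the largest lower genes were varied. Ugt8a, which makes galactosylceramide, led with 19.7, 29.0 and 0.341 in NTB, 4T1-TB and IRF8-deficient, or 57.7-fold (40.8 to 84.5) lower than in NTB. Vcam1, an adhesion ligand for the integrin VLA-4, had 99.6, 71.3 and 10.5 and was 9.51-fold (8.90 to 10.2) lower. Tie1, a receptor of endothelial and early blood cells, had 10.5, 9.01 and 0.316, Rab38, a GTPase of lysosome-related organelles, had 10.6, 7.85 and 0.704, and Smo, the Hedgehog signal transducer, had 8.31, 6.25 and 0.443. In these 5 genes both F1 libraries were high and the C57BL/6 library low. Rasa4, an inhibitor of RAS, had 11.4, 1.19 and 0.880 and was low in 4T1-TB as well, as was Fosb. Erdr1 had 50.5, 32.3 and 2.46, a gene of the pseudoautosomal region. Ppic, Dock9, Dnajc6, Krt18, Fabp5, Fah, Ctse and Gstm5 were also among the 20 largest, with differences from -3.08 to -2.23. Rprl3, a small RNA left out of that ranking and named after its values were seen, had 610.1, 691 and 0.162.

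Of the 20 largest higher genes, 3 have not been given so far. Inhba, the activin A chain, had 0.642, 1.56 and 40.4, Chil1, a chitinase-like protein, had 8.42, 24.5 and 232 and Plbd1, a granule phospholipase B-like protein, had 3.42, 5.11 and 192.

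Genes listed at 0 in 1 library were mostly of low level. Among named symbols 425 were listed at 0 in NTB and above 0 in IRF8-deficient, 3 of them at 1 or more: Scrg1 with 5.85, Gal, the neuropeptide galanin, with 1.70 and Ear10 with 1.14. Scrg1 was 61.2-fold higher against a floor of 3 reads, with 48.9-fold as the lower end of its read-count interval. In the other direction 935 were listed at 0 in IRF8-deficient and above 0 in NTB, 7 of them at 1 or more: Ifi202b, Tom1l1 with 1.73, Mc5r with 1.69, Fbxo16 with 1.42, Pgbd5 with 1.26, Masp2 with 1.201 and Rnase2a with 1.13. Tom1l1, Fbxo16 and Pgbd5 had values in 4T1-TB close to or above those in NTB (1.74, 1.795 and 1.83), so both F1 libraries held them. At the minimum for entry, Sytl4 at 1.001 in NTB, Gm4532 at 1.002 and Tnni3 at 1.003 were just inside, and Mir6418 at 0.999 in IRF8-deficient, Ascl2 at 0.998 and Pard3b at 0.998 in NTB just outside.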

How the data were processed

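Total RNA of sorted bone marrow granulocyte progenitors was sequenced in 3 libraries, 1 per group. The authors deposited RPKM values per gene for each library, and no read counts were used. The submitters' processing notes list the mm10 build and, with no step for any, edgeR 3.12.1, HTSeq 0.6.1, Picard 1.97, TopHat2 2.0.13, cutadapt 1.2.1 and CASAVA 1.8.2; the sources used here do not give strand or RNA selection. Read counts were recovered for 15158 genes from the steps of the RPKM values. The scale of the implied transcript lengths was chosen to make the most lengths whole in a subset of shorter genes with reads in all 3 libraries. The share reached there, 87.1%, is thus a fitted value and not a check. Multiples were then resolved against GENCODE M21. The counts served for the Clopper-Pearson 95% intervals of folds and a floor of 3 reads. Genes at an RPKM of 1 or more in NTB or IRF8-deficient were compared as log2(RPKM + 1), with a pseudocount of 1, and called at a difference of 1. With 1 library per group no test was made. Alternatives changed the pseudocount, the minimum, the scaling and the call. Named genes were Irf8 and its family, the 20 largest differences each way with an RPKM of at least 5 in either library (leaving out predicted, pseudogene, receptor segment, histone, ribosomal protein and small RNA genes), up to 10 each way listed at 0, up to 4 per direction in each gene list with role-defining members, and genes nearest the minimum. The genes, lists and rules were chosen with earlier results of these data known. The recovery of reads and the calls were also run on simulated libraries, made from the recovered values of these data with counting noise only. Such libraries hold no spread between mice and no strain difference, so they cannot show how the calls stand against either. Tables were handled with pandas 2.3.3, intervals computed with scipy 1.17.1 and numpy 2.4.6, and plots drawn with matplotlib 3.10.9 under Python 3.11.15.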

Additional observations from a re-analysis of the deposited data

How the results depend on the processing

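No paired analysis was possible because each group holds 1 library. The 936 higher and 611 lower genes became 526 and 149 with a pseudocount of 5, 445 and 1932 when scaled to summed reads, and 203 and 41 at a difference of 2 or more. With a pseudocount of 0.1, 1136 genes were higher and 1036 were lower, so the excess of higher genes was smaller at that setting. The difference of Irf8 was -1.60, and -1.38 with a pseudocount of 5, -1.75 without the 20 highest genes and -2.11 when scaled to summed reads. Over 387 genes and 70 lists, 3145 values were recomputed under 7 alternatives. Of these, 1853 moved by less than their counting interval (genes) or 0.1 (list medians), 1292 moved further and 0 called values changed sign. For a gene, another minimum leaves the difference as it was, and another pseudocount cannot turn its sign. Only the changes of scaling could turn a gene's sign. Medians of 20 lists changed sign when scaled to summed reads, where the median of all genes moved from -0.02 to -0.51. Among named higher genes, Hp, Cyba, Ncf1, Cxcr4, Fcgr3, Cebpd, Mxi1, Isg15, Ifitm1, H2-D1, B2m, Hmox1, Bmf, Mthfd2, G6pdx, Spc25, Rb1, Actb, Mpeg1, Csf2rb, Stat4, Prdx5 and Kdm6b were below the call when scaled to summed reads. That scaling lowers the ratio of IRF8-deficient to NTB by the same factor for every gene. Why the implied library sizes differ from the summed reads was not tested. Depth limits low genes, since an RPKM of 1 rested on 74.3 reads at the median length in IRF8-deficient, and 1 library a side leaves the spread between mice unknown.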

Other observations

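The RPKM values that follow a gene here are those of NTB, 4T1-TB and IRF8-deficient in this order. Of 19 receptors for colony-stimulating factors and interleukins, 6 were higher in IRF8-deficient than in NTB and 1 was lower, or 3 and 3 when scaled to summed reads. Il18rap, a chain of the interleukin-18 receptor, had 10.2, 15.6 and 37.3, and Il18r1, the other chain, had 0.173, 0.330 and 5.18. Il1r2, the decoy receptor for interleukin-1, had 1.76, 23.9 and 22.3, with 4T1-TB and IRF8-deficient close to each other. Csf2rb, the common beta chain, had 24.4, 70.9 and 56.7 and was highest in 4T1-TB. The lower member was Il6st (gp130), with 16.6, 6.37 and 5.73. Jak3, a kinase of cytokine receptors, was lower with 14.9, 24.3 and 6.17, and Stat4 was higher with 11.1, 8.05 and 25.5.

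Among 33 enzymes that modify DNA or histones, 5 were lower and 1 was higher. The de novo DNA methyltransferases Dnmt3a and Dnmt3b were both lower, Dnmt3a with 9.68, 8.91 and 4.30 and Dnmt3b with 7.47, 5.60 and 2.25. Kdm6b, a demethylase of histone H3, was the higher member, with 2.72, 3.74 and 8.58, and was not called when scaled to summed reads. Among 27 glutathione and antioxidant genes 4 were higher and 3 lower, or 1 and 6 of 26 when scaled to summed reads. Prdx5 and Prdx1, both peroxiredoxins, went opposite ways: Prdx5 had 299, 324 and 738, whereas Prdx1 had 74.5, 94.9 and 36.2. Of 37 lysosome genes 3 were higher and 1 was lower, no more than the 8.86% and 5.78% over all genes compared. Their median of 0.39 became -0.13, with 1 higher, when scaled to summed reads. Above the median of all genes it lay by 0.41 as deposited and by 0.39 under that scaling. Tfeb, the regulator of lysosome genes, had 3.36, 2.44 and 11.5, and Gaa, the lysosomal alpha-glucosidase, was the lower one, at -1.53.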
